A study of Mus musculus with 14 samples.

Results

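SMAD4 peaks that were listed in vehicle-treated muscle stem cells (MuSCs) and had no counterpart after BMP6 are described here. They were selected by overlap alone. A SMAD4 peak of vehicle-treated cells was taken when no SMAD4 peak of BMP6-stimulated cells covered as little as 1 bp of it. This left 2598 of the 8577 vehicle SMAD4 peaks (30.3%), and the other 5979 were shared. The reverse set, listed after BMP6 only, held 7008 of the 12860 BMP6 SMAD4 peaks (54.5%). All 6 peak lists of the study together hold 175565 peaks.

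The data are CUT&Tag, in which an antibody directs the Tn5 transposase to chromatin so that fragments are released where the protein or histone mark is bound. MuSCs came from muscles of female mice, 9 weeks old, of the line C57BL/6N(Tg(Pax7-EGFP)Tajb). The transgene marks cells that use the Pax7 promoter, and GFP sorting after 1 day in culture enriched for them before a further 2 days of culture. All cells were then starved for 6 h with 200 ng/mL soluble BMPR1A-Fc, a trap for BMP ligands, and afterwards received for 1 h either 100 ng/mL BMP6 or vehicle, which was 4 mM HCl with 0.1% BSA. Each library used 100000 cells, which had been fixed for 2 min with formaldehyde at 0.1%. Antibodies against SMAD4, pSMAD1/5/9 and H3K27ac were used on 2 biological replicates per condition, and 2 libraries made with no primary antibody were left out. Each antibody and condition gave 1 consensus list of peaks on which both replicates agreed.

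SMAD4 is the partner that BMP and TGF-β signalling have in common. BMP receptors phosphorylate SMAD1, SMAD5 and SMAD9, TGF-β and activin receptors phosphorylate SMAD2 and SMAD3, and both groups enter the nucleus with SMAD4. A SMAD4 peak by itself does not tell the branches apart, whereas pSMAD1/5/9 peaks mark the BMP branch. H3K27ac marks active promoters and enhancers.

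The cells carried the chromatin of MuSCs. An H3K27ac peak lay within 2 kb of the TSS for all 8 MuSC marker genes in both conditions, Pax7, Myf5 and Myod1 among them. The same held for 1 of 4 endothelial markers (Tek), none of 4 immune markers and 1 of 4 fibro-adipogenic markers (Pdgfrb). Pecam1, Cdh5, Ptprc, Pdgfra and Ly6a were among the genes with no such peak. By signal percentile in the vehicle H3K27ac list, with 100 for the strongest, Tek was at 60.3 and Pdgfrb at 93.1. The MuSC markers ran from 68.7 (Sdc4) to 100.0 (Myf5).

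The sequences below are examples from the strongest sites and need not represent the set, most of which was weak. Each is the 151 bases centred on the SMAD4 summit, read 5′ to 3′ on the plus strand of GRCm39. Capitals mark any match to the motifs counted further on, on either strand. The first 3 are the strongest vehicle-only peaks by SMAD4 signal whose windows lie outside UTRs. They lie at chrX:165586349-165586499, between genes, at chr6:72121692-72121842, in intron 4 of St3gal5, and at chr1:192481099-192481249, between genes, upstream of Hhat.
Egfl6 peak: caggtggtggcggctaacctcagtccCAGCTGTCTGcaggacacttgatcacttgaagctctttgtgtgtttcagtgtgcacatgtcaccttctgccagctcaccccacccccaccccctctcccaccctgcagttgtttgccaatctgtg
St3gal5 peak: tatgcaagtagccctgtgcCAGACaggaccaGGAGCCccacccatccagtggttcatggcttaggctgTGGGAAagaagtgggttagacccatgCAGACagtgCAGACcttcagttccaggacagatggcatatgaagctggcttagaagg
Hhat peak: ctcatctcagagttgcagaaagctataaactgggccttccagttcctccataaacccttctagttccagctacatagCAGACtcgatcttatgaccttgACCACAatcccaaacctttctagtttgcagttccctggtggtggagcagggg

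In the Egfl6 window an E-box and a SMAD half-site share 1 base. The St3gal5 window holds 3 SMAD half-sites, and the Hhat window holds 1.

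The next 3 are the strongest that also overlap a pSMAD1/5/9 peak after BMP6, apart from the Hhat peak, which belongs to both sets, and from the Tmem253 and Hcfc1 peaks, whose windows overlap annotated UTRs. They lie at chr2:103981431-103981581, in intron 20 of D430041D05Rik with A930018P22Rik as the nearest TSS, at chr13:54936948-54937098, just upstream of the Tspan17 TSS, and at chr14:28739798-28739948, upstream of the Lrtm1 TSS and inside intron 27 of Cacna2d3.
A930018P22Rik peak: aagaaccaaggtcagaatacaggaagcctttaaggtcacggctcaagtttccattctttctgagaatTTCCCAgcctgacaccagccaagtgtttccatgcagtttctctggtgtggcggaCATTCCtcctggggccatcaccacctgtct
Tspan17 peak: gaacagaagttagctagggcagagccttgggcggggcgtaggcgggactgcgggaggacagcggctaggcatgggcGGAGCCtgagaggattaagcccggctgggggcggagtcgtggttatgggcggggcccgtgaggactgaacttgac
Lrtm1 peak: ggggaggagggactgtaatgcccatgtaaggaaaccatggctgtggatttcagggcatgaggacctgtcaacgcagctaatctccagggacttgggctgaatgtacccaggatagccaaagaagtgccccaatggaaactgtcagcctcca

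These windows held no SMAD half-site, and a pSMAD1/5/9 peak was listed over each of them. Lack of the half-site was common, since 45.2% of all vehicle-only sites held it in the 200 bp around the summit. The Tspan17 window had 1 BMP-type SMAD site, and the Lrtm1 window had none of the motifs searched.

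Vehicle-only peaks were mostly weak members of the vehicle list. Signal is the peak caller's score summed over both replicates, and its percentile gives a peak's place in the list, with 100 for the strongest. The median signal was 6659 in vehicle-only and 12321 in shared peaks, which is a median percentile of 24.7 against 62.7. The strongest vehicle-only peak ranked 497 among the 8577 vehicle peaks, so every stronger peak had a BMP6 counterpart. Because the SMAD4 lists chose the peaks, these values and those of the next paragraphs on SMAD4 are descriptions without a test.

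The share of vehicle-only peaks fell steadily with strength. In the weakest decile of the vehicle list, with 10 deciles of equal size, it was 69.1% (593 of 858), in the fifth decile 29.5% (253 of 858) and in the strongest decile 0.932% (8 of 858). The list obtained after BMP6 had the same gradient. Its peaks without a vehicle counterpart made up 89.7% of its weakest decile and 4.59% of its strongest.

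Agreement between the replicates was also lower by the measure used to list the peaks. That measure ranks peaks by signal, so it is not independent of the strength given above. The irreproducible discovery rate (IDR) is the expected share of peaks at that rank or above on which the replicates do not agree, and peaks were kept at an IDR of up to 0.05. The median −log10 of the IDR was 1.55 for vehicle-only and 2.08 for shared peaks. An IDR of at most 0.01 was reached by 328 vehicle-only peaks (12.6%) and by 3247 shared peaks (54.3%). Vehicle-only peaks were narrower as well, with a median width of 369 bp against 528 bp.

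The balance of the replicates was alike in both sets. The first replicate column was mostly the higher one, with a median ratio to the second of 1.5 in vehicle-only peaks and 1.56 in shared peaks. In vehicle-only peaks the median signals of the columns were 3874 and 2604, and in shared peaks 7414 and 4687. As a set, vehicle-only peaks were low in both columns.

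**Figure D1:**
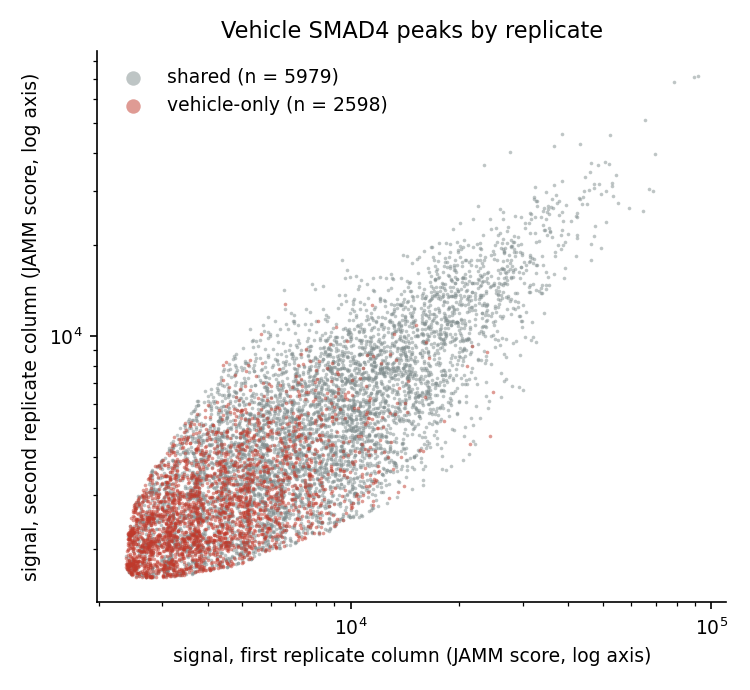
SMAD4 signal of each vehicle peak in the first (x axis) and second (y axis) replicate column, as peak caller scores on log axes, with 1 point per peak. The 2598 vehicle-only peaks (red) gather at low signal in both columns, with medians of 3874 and 2604, and the shared peaks (grey) reach far higher.

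Many vehicle-only peaks lay far from any SMAD4 peak seen after BMP6, and a minority lay at its edge. The gap to the nearest BMP6 SMAD4 peak had a median of 17684 bp, with quartiles of 3040 bp and 68830 bp. A gap of up to 500 bp was found for 269 peaks (10.4%), up to 1 kb for 386 (14.9%) and up to 20 kb for 1348 (51.9%). Among the 386 within 1 kb, the neighbouring BMP6 peaks were themselves all without a vehicle counterpart in 175 cases (45.3%), so that the listed position differed over a short distance between the conditions. A BMP6 SMAD4 peak within 5 kb on both sides flanked 139 vehicle-only peaks (5.35%).

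Few peaks sat at the boundary of the rule. Just inside it, 10 vehicle-only peaks touched a BMP6 peak without overlap and 7 more had a gap of up to 10 bp. Just outside it, 4 shared peaks overlapped by 10 bp or less, the smallest overlap being 1 bp, while the median overlap of shared peaks was 438 bp.

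**Figure D2:**
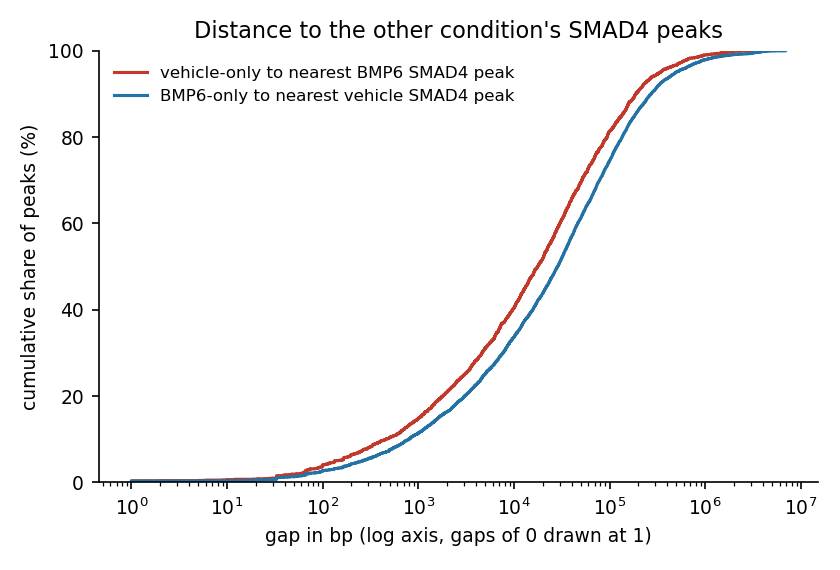
Cumulative share of peaks (y axis, %) against the gap to the nearest SMAD4 peak of the other condition (x axis, bp, log axis), for vehicle-only peaks (red) and BMP6-only peaks (blue). The median gap was 17684 bp for vehicle-only peaks and 28594 bp for BMP6-only peaks, whose partner list was the shorter one.

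One in 5 of these sites was occupied by pSMAD1/5/9 after BMP6, although SMAD4 was no longer listed there. A BMP6 pSMAD1/5/9 peak overlapped 520 of the 2598 vehicle-only peaks (20.0%) and 3865 of the 5979 shared peaks (64.6%), against 51.1% of all vehicle SMAD4 peaks. The difference was −44.6 percentage points (95% interval −46.5 to −42.6). This interval, like those below, is Newcombe's for a difference of 2 shares. It covers counting error over peaks, which are not replicates, and each list is 1 consensus without a replicate error of its own. In all, 49 differences of shares were computed, 19 of them between vehicle-only and shared peaks, and no correction for their number was made.

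Peak strength moved with this share, so the comparison was repeated at equal strength. Here and below, equal strength refers to the vehicle SMAD4 signal alone. SMAD4 signal after BMP6 was not made equal, because the rule itself divided the sets by the BMP6 SMAD4 list. In the weakest decile of the vehicle SMAD4 signal, 8.94% of vehicle-only and 35.1% of shared peaks overlapped a BMP6 pSMAD1/5/9 peak. In the seventh decile the values were 40.7% and 64.7%. The vehicle-only share was the lower one in each of the 10 deciles, although in the strongest decile it rests on 8 peaks. Weighted by the number of vehicle-only peaks per decile, the difference was −25.5 points (−27.9 to −23.0). Among peaks that passed an IDR of 0.01, 142 of 328 vehicle-only peaks (43.3%) had a pSMAD1/5/9 peak, a difference of −35.3 points (−40.7 to −29.7).

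**Figure D3:**
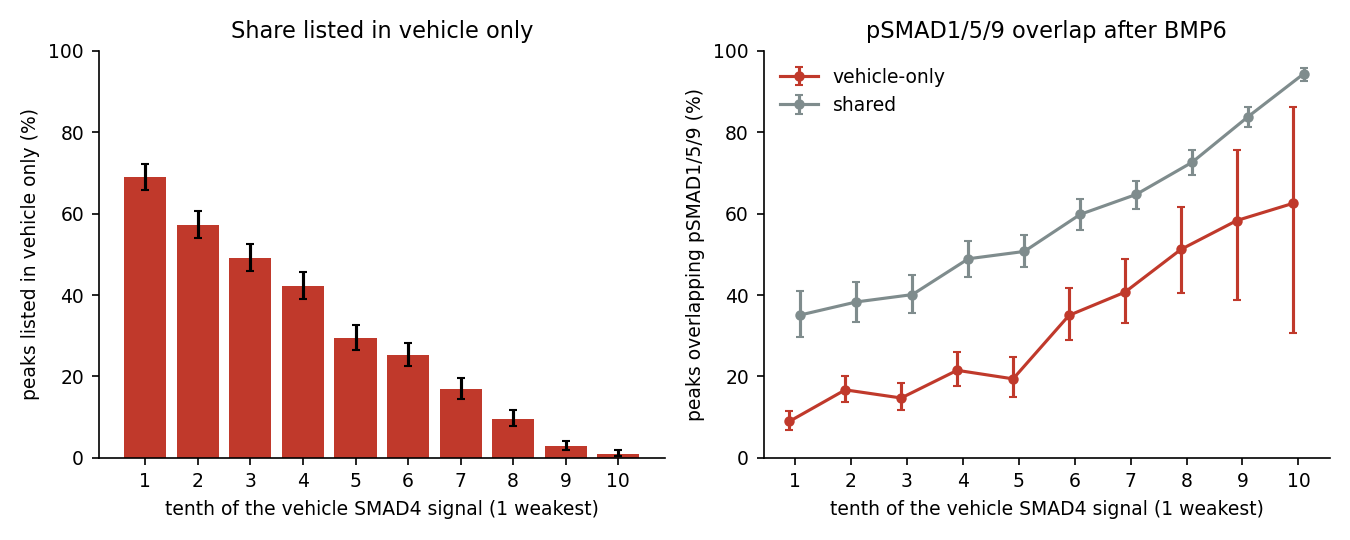
Left, share of vehicle SMAD4 peaks listed in vehicle only (y axis, %) in each decile of the vehicle signal (x axis, 1 weakest). Right, share overlapping a BMP6 pSMAD1/5/9 peak (y axis, %) in the same deciles for vehicle-only (red) and shared peaks (grey). Error bars are Wilson 95% intervals, and the vehicle-only share fell from 69.1% to 0.932% while its pSMAD1/5/9 overlap rose from 8.94% to 62.5%.

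For 476 of the 520 sites (91.5%), the strongest overlapping pSMAD1/5/9 peak met no BMP6 SMAD4 peak anywhere along its length, which follows largely from the rule that chose the sites. The summits of the vehicle SMAD4 peak and of the pSMAD1/5/9 peak were a median of 87.5 bp apart, next to 82.0 bp at shared sites. Their strength was moderate, with a median percentile of 42.5 among BMP6 pSMAD1/5/9 peaks, compared with 72.5 at shared sites.

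The pSMAD1/5/9 list gives the same sites from the other side. After BMP6, 1964 of 7339 pSMAD1/5/9 peaks (26.8%) had no BMP6 SMAD4 peak, and 467 of those (23.8%) lay on a vehicle-only SMAD4 peak. Over all 7339 the number was 511 (6.96%). The higher share among the 1964 follows largely from the rule, since vehicle-only sites also had to lack BMP6 SMAD4.

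Without BMP6, pSMAD1/5/9 was rarely listed at these sites. A vehicle pSMAD1/5/9 peak overlapped 52 vehicle-only peaks (2.00%) and 813 shared peaks (13.6%), against 10.1% of all vehicle SMAD4 peaks, a difference of −11.6 points (−12.6 to −10.6). Between peaks of equal vehicle signal the difference was −3.60 points (−4.62 to −2.58). At 32 vehicle-only sites pSMAD1/5/9 was listed under both conditions.

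By these measures the values of vehicle-only sites lay nearer to those of BMP6-only sites than to those of shared sites. A BMP6 pSMAD1/5/9 peak overlapped 24.5% of the 7008 BMP6-only SMAD4 peaks, a difference of −4.44 points for vehicle-only minus BMP6-only peaks (−6.25 to −2.57). For vehicle pSMAD1/5/9 the shares were 2.00% and 1.53%, and the interval of the difference, −0.0926 to 1.14 points, included 0.

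Most vehicle-only sites had H3K27ac under both conditions. An H3K27ac peak covered 2359 of them (90.8%) in vehicle and 2372 (91.3%) after BMP6. In vehicle the share was 98.9% of shared peaks, a difference of −8.10 points (−9.29 to −7.00), and 96.4% of all vehicle SMAD4 peaks. The difference held at equal strength (−7.32 points, −8.60 to −6.03), but among peaks at an IDR of up to 0.01 it was −0.998 points with an interval from −3.12 to 0.0595.

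It was uncommon for the H3K27ac peak to be listed in vehicle only, as the SMAD4 peak was. Only 26 vehicle-only sites (1.00%) had H3K27ac listed in vehicle and not after BMP6, against 0.361% of all vehicle SMAD4 peaks. The reverse was seen at 39 (1.5%), against 0.863% of all vehicle SMAD4 peaks, 0.585% of shared and 3.18% of BMP6-only peaks. The share of 1.00% was 0.917 points above that of shared peaks (0.581 to 1.38) and 0.487 points above that of BMP6-only peaks (0.114 to 0.970). Among the 328 peaks at an IDR of up to 0.01 the first difference was 0.274 points, with an interval from −0.0151 to 1.68. Where both H3K27ac lists had a peak, its percentile changed little, with a median shift of 0.665 percentile points after BMP6 in vehicle-only and 0.532 in shared sites.

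No H3K27ac peak was listed in either condition at 200 vehicle-only sites (7.70%), next to 0.518% of shared, 2.69% of all vehicle and 6.88% of BMP6-only sites. These 200 sites were largely distant from promoters. Of them, 122 (61.0%) were intergenic, 69 (34.5%) intronic and 2 at a TSS, and 35 (17.5%) lay on the X chromosome. pSMAD1/5/9 was nearly lacking where vehicle H3K27ac was, with 2 of 239 such sites overlapping a BMP6 pSMAD1/5/9 peak (0.837%) against 518 of the 2359 with the mark (22.0%).

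By location, vehicle-only peaks were spread over promoters and distal sequence. Of the 2598, 736 (28.3%) lay within 2 kb of a TSS, 127 (4.89%) in exons, 843 (32.4%) in introns and 892 (34.3%) between genes. The TSS share of shared peaks was 32.4%, a difference of −4.12 points (−6.20 to −2.00), and among peaks at an IDR of up to 0.01 the difference was 0.592 points, with an interval from −4.52 to 6.08. Intergenic sites were 2.41 points more frequent than in shared peaks (0.245 to 4.59). The median distance from the summit to the nearest TSS was 17430 bp for vehicle-only and 12517 bp for shared peaks. Within the vehicle-only set, sites with a BMP6 pSMAD1/5/9 peak were at a TSS more often (36.3%) than those without (26.3%), a difference of 10.0 points (5.56 to 14.6).

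The X chromosome stood apart from every autosome. Of the 262 vehicle SMAD4 peaks on the X, 146 (55.7%) were vehicle-only, while the share ran from 21.9% to 39.2% over the 19 autosomes and was 29.5% on all of them together. The X held 5.62% of vehicle-only and 1.94% of shared peaks, a difference of 3.68 points (2.77 to 4.68) that was 3.99 points at equal strength (2.95 to 5.02). The BMP6 list showed the same feature, since 76.3% of its X-linked peaks (364 of 477) and 53.7% of its autosomal peaks had no vehicle counterpart. X-linked vehicle-only peaks were no weaker than autosomal ones, with a median signal percentile of 28.6 against 24.5. H3K27ac in vehicle covered 69.2% of them (101 of 146), compared with 92.1% of autosomal vehicle-only peaks and 99.1% of shared peaks on the X. All mice were female.

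**Figure D4:**
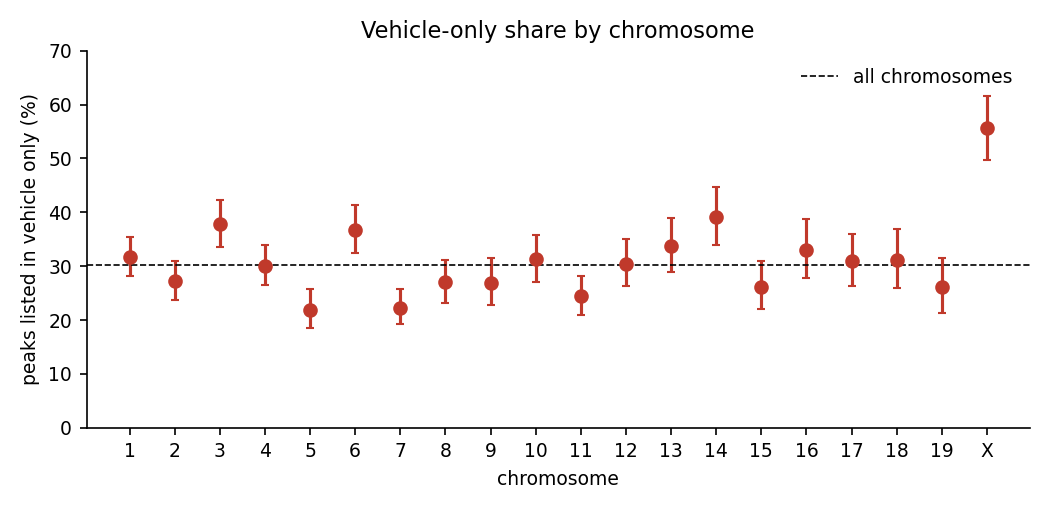
Share of vehicle SMAD4 peaks listed in vehicle only (y axis, %) on each chromosome (x axis), with Wilson 95% intervals and the share over all chromosomes, 30.3%, as a dashed line. Autosomes lie between 21.9% and 39.2% and the X at 55.7%.

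SMAD motifs under the summits were less frequent at vehicle-only than at shared sites. Each motif was looked for on either strand in the 200 bp around the summit, and the same windows moved 1 kb to both sides gave regions of equal length. The median GC content of the summit windows was 54.0% at vehicle-only and 56.0% at shared sites. Whether the motif differences hold at equal GC content was not tested. The SMAD palindrome GTCTAGAC joins a pair of inverted SMAD boxes. It was found in 7 vehicle-only windows (0.269%) and in 92 shared windows (1.54%), a difference of −1.27 points (−1.64 to −0.868), and in 1.15% of all vehicle SMAD4 windows. In the moved windows of vehicle-only sites its share was 0.250%, about the same as at the summits themselves. BMP6-only windows held it in 0.970% of cases, a difference of −0.701 points (−0.994 to −0.350).

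The same direction was seen for the other SMAD motifs. The half-site GTCTG, which the palindrome does not contain, was present in 45.2% of vehicle-only and 54.3% of shared windows, a difference of −9.17 points (−11.5 to −6.87). Its share in the moved vehicle-only windows was 39.2%, and in all vehicle SMAD4 windows 51.5%. For the BMP-type site GGCGCC the shares were 5.23% and 7.78% (−2.54 points, −3.60 to −1.41), with 1.89% in moved windows and 7.01% in all vehicle SMAD4 windows. The related GGAGCC was in 21.5% and 24.8% (−3.29 points, −5.18 to −1.34), and in 23.8% over all. Its moved windows also differed, with 11.5% at vehicle-only and 14.2% at shared sites, so the summit difference is not particular to the summits. At equal strength the interval of its difference included 0 (−2.11 points, −4.44 to 0.213). With an IDR of at most 0.01 the direction was reversed (2.86 points, −1.98 to 8.16).

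Vehicle-only sites with pSMAD1/5/9 after BMP6 held both BMP-type sites more often than those without. GGCGCC was in 7.69% of the 520 windows with a BMP6 pSMAD1/5/9 peak and in 4.62% of the 2078 without, a difference of 3.07 points (0.848 to 5.81). For GGAGCC the difference was 4.36 points (0.396 to 8.60). Sites with pSMAD1/5/9 were also at a TSS more often (36.3% against 26.3%). Away from a TSS, GGCGCC was in 31 of 1862 vehicle-only windows, against 136 of all 2598. Whether the motif differences hold at equal location was not tested. The share of the half-site GTCTG was 43.1% with and 45.7% without pSMAD1/5/9, and the interval of that difference, −7.30 to 2.20 points, included 0.

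E-boxes were far more frequent at the summits than 1 kb away. The E-box CAGCTG, which the myogenic factors MYOD1 and MYF5 bind, was in 29.8% of vehicle-only windows and 10.5% of the moved windows, against 32.7% over all vehicle SMAD4 windows. Shared windows had it in 34.0% (−4.22 points, −6.32 to −2.07), but at equal strength the difference was −0.871 points with an interval from −3.41 to 1.67. Compared with BMP6-only windows (26.2%), the E-box was 3.51 points more frequent at vehicle-only sites (1.49 to 5.57).

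The AP-1 site, written TGACTCA or TGAGTCA, was in 12.2% of vehicle-only, 15.9% of shared, 14.8% of all vehicle SMAD4 and 3.85% of moved vehicle-only windows, with a difference of −3.68 points from shared sites (−5.22 to −2.08). MEF2, named for the muscle factor family that binds it, was the only motif with a higher share at vehicle-only sites, where 33 windows (1.27%) held it next to 0.803% of shared, 0.944% of all and 0.385% of moved windows. That difference, 0.467 points (0.0199 to 1.01), barely cleared 0 and no longer did in windows of 100 bp or 400 bp.

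TEAD sites (GGAATG) were in 13.3% of vehicle-only and 15.5% of shared windows, with 14.8% over all and 11.2% in moved windows (−2.17 points, −3.74 to −0.548). At equal strength the TEAD difference was −1.44 points (−3.38 to 0.504), and with an IDR of at most 0.01 it was 2.28 points (−1.75 to 6.98). For RUNX (TGTGGT) the shares were 20.0% and 21.1%, with 20.7% over all and 15.2% in moved windows, and for RBPJ (TGGGAA), the DNA-binding partner of Notch, 18.6% and 19.9%, with 19.5% over all and 20.0% in moved windows. The intervals for these last motifs included 0, but at equal strength the RUNX difference was −2.66 points (−4.96 to −0.360). A letter match in a window does not show that a factor is bound.

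**Figure D5:**
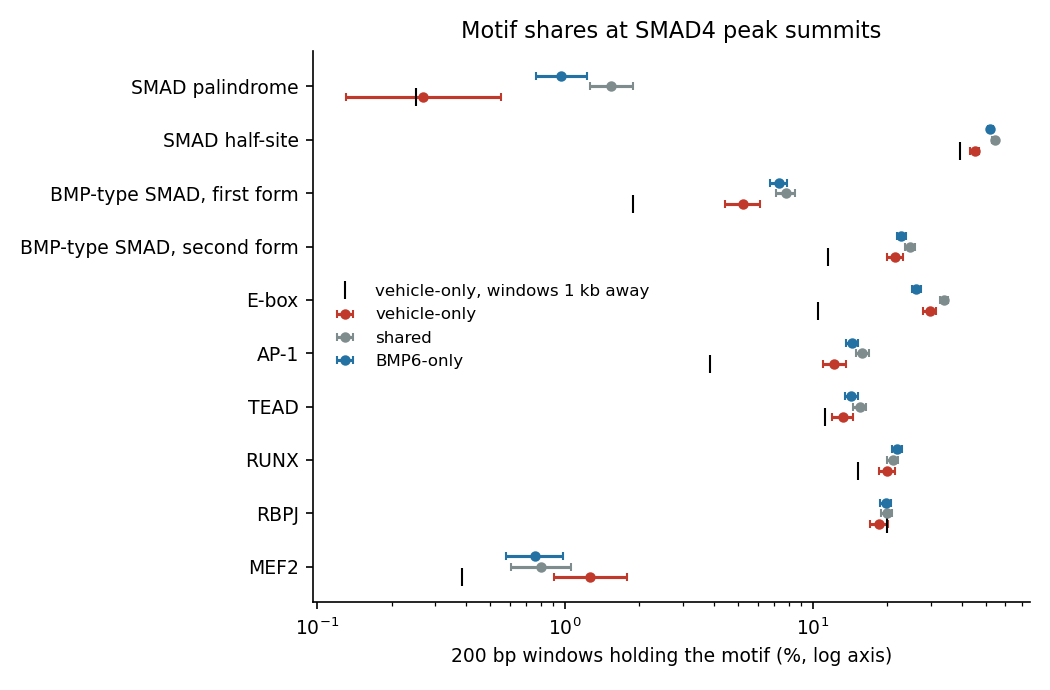
Share of 200 bp summit windows that hold each motif (x axis, %, log axis) for vehicle-only (red), shared (grey) and BMP6-only SMAD4 peaks (blue), with Wilson 95% intervals, and for vehicle-only windows moved by 1 kb (black ticks). The SMAD palindrome at vehicle-only sites (0.269%) coincides with its moved windows (0.250%), while the E-box (29.8%) lies far to the right of them (10.5%). The first form of the BMP-type SMAD site is GGCGCC and the second is GGAGCC.

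The strongest vehicle-only peaks showed 2 kinds of site, with and without pSMAD1/5/9 after BMP6. The strongest of all lay on the X, 217599 bp upstream of the TSS of Egfl6, which encodes a secreted EGF-like protein. Its signal was 23771 in the first replicate column and 8881 in the second, with a −log10 IDR of 3.32. A BMP6 SMAD4 peak lay only 824 bp away, no pSMAD1/5/9 peak was listed, and H3K27ac was at percentile 99.9 in both conditions. The next, at 24756 and 6538, covered the TSS of Creld1 in its exon 1 (chr6:113459971-113460534), 1449 bp from a BMP6 SMAD4 peak.

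St3gal5 encodes the synthase of the ganglioside GM3. The peak in its intron 4 had signals of 21667 and 9294, the highest −log10 IDR of all vehicle-only peaks (3.43), and no BMP6 SMAD4 peak within 31251 bp. H3K27ac over it was at percentile 89.8 in vehicle and 97.7 after BMP6. It also lacked pSMAD1/5/9.

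The peak upstream of Hhat, the hedgehog acyltransferase gene, was carried by the first replicate column. Its signals were 24377 and 4687, a ratio of 5.20 that was the highest of all vehicle-only peaks, and its −log10 IDR was 1.55. At the Hcfc1 promoter on the X, which serves a transcriptional co-regulator, the signals were 21324 and 4432, with a −log10 IDR of 1.63. Both ranked high by the summed signal but agreed poorly between replicates.

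The remaining peaks of the 10 strongest lay near Tmem253, A930018P22Rik, Tspan17, Lrtm1 and Sema6a. Replicates were close at the Sema6a peak, in intron 1 of this semaphorin gene, with 11440 and 12616. Of the 10 strongest, 6 overlapped a BMP6 pSMAD1/5/9 peak and 4 did not (Egfl6, Creld1, St3gal5 and Sema6a), and H3K27ac was listed at all 10 in both conditions.

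Among the 10 strongest vehicle-only peaks with pSMAD1/5/9 after BMP6, the Lrtm1 peak had the strongest pSMAD1/5/9 partner. That partner ranked 600 of 7339, with a −log10 IDR of 4.06 and signals of 31504 and 18809 in its replicate columns. The SMAD4 peak there had signals of 16494 and 8506, and the nearest BMP6 SMAD4 peak lay 4884 bp away. No vehicle pSMAD1/5/9 peak was listed at 9 of the 10 strongest such sites, the exception being the Azin1 site.

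In intron 2 of Ccnd3, which encodes cyclin D3, the SMAD4 peak had signals of 13189 and 10126, and a BMP6 SMAD4 peak lay 1584 bp away. At the first exon of Tpt1, an abundant translationally controlled protein, they were 18070 and 5256. In intron 4 of Col4a2, a basement membrane collagen gene, they were 13323 and 8350, with a pSMAD1/5/9 peak of rank 1053 after BMP6. Near Azin1, a regulator of polyamine synthesis, the peak missed a BMP6 SMAD4 peak by 132 bp.

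Most genes with a vehicle-only peak also had a SMAD4 peak after BMP6 in the region around them. A gene was assigned every peak within its body or 20 kb on either side. Vehicle-only peaks fell on 2862 of 21757 protein-coding genes (13.2%), and 1942 of these also had a BMP6 SMAD4 peak. The other 920 genes (4.23% of all) had a vehicle-only peak and no SMAD4 peak after BMP6. A BMP6 pSMAD1/5/9 peak was listed at 254 of the 920, a count that was not set against all genes. Only 89 of the 920 had more than 1 vehicle-only peak and 9 had at least 3. In the narrower promoter region, from 1.5 kb before to 0.5 kb after each TSS, 698 of the 21757 genes had a vehicle-only peak. Of these, 613 had no BMP6 SMAD4 peak there. By comparison, over the wider region 2781 genes had a SMAD4 peak after BMP6 and none in vehicle.

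The gene with most vehicle-only peaks among those without SMAD4 after BMP6 was Mcu, the pore of the mitochondrial calcium uniporter. All 4 SMAD4 peaks of vehicle-treated cells at this gene were vehicle-only. By rank they had signals of 4660 and 4403, 5593 and 2694, 5658 and 2235, and 3441 and 2789 in the replicate columns. A pair lay in intron 1, another covered the TSS, and the fourth lay 7945 bp upstream. The nearest BMP6 SMAD4 peak was 174507 bp or more away from each, and H3K27ac was listed over all 4 in both conditions.

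Hspa1a, Hspa1l and Mt2 had 3 such peaks each. The adjacent heat shock genes Hspa1a and Hspa1l share the same 3 peaks, with signals of 6089 and 3974, 7109 and 2670, and 3714 and 4260. Their summits lay 9890 to 19416 bp from the TSS of Hspa1a. At Mt2, a metallothionein gene, a peak of 3814 and 1968 covered exon 1, another of 3783 and 3459 lay 1040 bp before the TSS and the third lay past the gene. No pSMAD1/5/9 peak was listed within 20 kb of Hspa1a, Hspa1l or Mt2 after BMP6.

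The other named genes with 3 were Sypl1, Tha1, Cltb and Virma. At Sypl1 the promoter peak was among the strong ones, with signals of 14269 and 5653 and rank 1453. The peaks of Tha1, Cltb and Virma ranked between 4153 and 7902 of 8577. Clathrin light chain gene Cltb and Virma, a subunit of the RNA methylation complex, each had a BMP6 pSMAD1/5/9 peak within 20 kb. These were weak, at rank 6659 for Cltb and 6709 for Virma among the 7339 BMP6 pSMAD1/5/9 peaks.

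The BMP pathway had few vehicle-only sites. Of its 46 genes, 24 had a vehicle SMAD4 peak, but 2 had a vehicle-only one (4.35% of the list, against 13.2% of all genes). In peaks, 2 of 61 at these genes were vehicle-only (3.28%, Wilson 95% interval 0.904% to 11.2%), compared with 29.4% of the vehicle SMAD4 peaks near any protein-coding gene. The gene lists were chosen with results of these data known, so these shares are descriptions.

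The first was at the receptor gene Bmpr1a, in intron 5, with signals of 3710 and 4791 and a BMP6 SMAD4 peak 3468 bp away. The second was at Smad5, which encodes one of the SMADs that BMP receptors phosphorylate. It lay in intron 1, 703 bp from the TSS, with signals of 4329 and 2187 and a −log10 IDR of 1.57. Smad5 was the only gene of the BMP, TGF-β and Notch lists with a vehicle-only peak and no SMAD4 peak after BMP6 within 20 kb, and no pSMAD1/5/9 peak was listed there.

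In the TGF-β and activin pathway, 5 of 34 genes had a vehicle-only peak (14.7%, against 13.2% of all genes). These made 5 of 52 vehicle SMAD4 peaks (9.62%, against 29.4% near any protein-coding gene). The ligand gene Tgfb3 had one past the gene end with signals of 9952 and 3574, 444 bp from a BMP6 SMAD4 peak and overlapping a BMP6 pSMAD1/5/9 peak. At Pmepa1, an inhibitor of TGF-β signalling, the peak in intron 1 missed a BMP6 SMAD4 peak by 12 bp, and this gene had 12 SMAD4 peaks after BMP6. Col1a1, a collagen gene that TGF-β induces, had one 19630 bp upstream.

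In the Notch pathway, 5 of 28 genes had a vehicle-only peak (17.9%, against 13.2% of all genes), all with SMAD4 peaks after BMP6 as well. Of the peaks, 7 of 42 were vehicle-only (16.7%, against 29.4% near any protein-coding gene). At Snai1 a weak peak covered the TSS region with signals of 3234 and 1630 and a −log10 IDR of 1.30, at the threshold of the list. Another lay past the gene, with 4801 and 4897, under a strong BMP6 pSMAD1/5/9 peak of rank 437. Heyl, a Notch effector, had 2 within the gene and the ligand gene Dll1 had 1 in intron 4, all without pSMAD1/5/9.

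Among the myogenic factors 6 of 16 genes had a vehicle-only peak (37.5%, against 13.2% of all protein-coding genes), and 12 of the 16 had a vehicle SMAD4 peak of any kind, against 6698 of all 21757. Of their 51 vehicle SMAD4 peaks 13 were vehicle-only (25.5%, 15.5% to 38.9%), next to 29.4% of the vehicle SMAD4 peaks near any protein-coding gene. Each of the 6 kept a SMAD4 peak after BMP6. Pax7, which specifies MuSCs, had 4 in its introns besides 15 shared peaks and 28 SMAD4 peaks after BMP6. One of these 4, with signals of 2766 and 3446, was 102 bp from a BMP6 SMAD4 peak and lay under a BMP6 pSMAD1/5/9 peak of rank 399. Myf5 had 3, which also fall within 20 kb of the neighbouring Myf6.

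At Myf5 the vehicle-only peaks were 60 bp, 990 bp and 2006 bp from BMP6 SMAD4 peaks, with signals between 3618 and 4165 in the first replicate column and between 1963 and 2666 in the second.

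Among genes of contraction and fusion, 7 of 25 had a vehicle-only peak (28.0%, against 13.2% of all protein-coding genes). A vehicle SMAD4 peak of any kind was at 16 of the 25, against 6698 of all 21757 genes. None had a vehicle-only peak without SMAD4 after BMP6, against 4.23% of all genes. Of their peaks, 9 of 48 were vehicle-only (18.8%), below the 29.4% near any protein-coding gene. Myh3, the embryonic myosin heavy chain gene, had 2 and no shared peak, with 5235 and 6663 at the one in intron 3. At Mymx, a fusion factor gene, both vehicle-only peaks overlapped a BMP6 pSMAD1/5/9 peak. Actn2 had 1 with signals of 5140 and 2169, also with pSMAD1/5/9.

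Of the AP-1 factors, 2 of 14 genes (14.3%, against 13.2% of all genes) had a vehicle-only peak. Of their peaks, 2 of 22 were vehicle-only (9.09%, against 29.4% near any protein-coding gene). The Fos peak, 1550 bp upstream of the TSS, overlapped a BMP6 pSMAD1/5/9 peak and the Fosb peak did not. Of the cell cycle regulators, 3 of 20 genes (15.0%) had a vehicle-only peak, with 4 of 18 peaks (22.2%), next to the same 13.2% and 29.4%. Cdkn2c, a CDK inhibitor gene, had 2 and no SMAD4 peak after BMP6 within 20 kb, with signals of 5510 and 3841 at the upstream one, and its closest BMP6 SMAD4 peak was 179994 bp away. Ccne1 had 1 with signals of 3494 and 3730.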

How the data were processed

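CUT&Tag peak lists of 12 samples (6 lists, 2 biological replicates each) were used, grouped by antibody and treatment as labelled. According to the methods, the authors brought libraries of an antibody to the same number of reads, used Bowtie2 2.5.4 for alignment to GRCm39 and SAMtools 1.21 for filtering, called peaks per replicate with JAMM and combined replicates by IDR (at most 0.05, ranked by signal). The deposited signal is a score of the peak caller with no fixed range, the sum of both replicate columns, and IDR is deposited as −log10. The lists hold no read counts, so the depth left after alignment and filtering is unknown, and replicate columns carry no numbers.

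Overlaps of at least 1 bp, Wilson and Newcombe intervals and motif counts were computed in Python 3.11.15 with numpy 2.4.6, pandas 2.3.3 and pysam 0.24.0, tested on simulated data. The design's RefSeq Select genes were replaced by canonical GENCODE transcripts on GRCm39. Equal-strength differences weight deciles of vehicle signal by the vehicle-only peaks in each. Members, gene lists and motifs were chosen with earlier results of these data known. Named genes were the nearest TSS of the 10 strongest vehicle-only peaks and of the 10 strongest with BMP6 pSMAD1/5/9, the 8 genes with most vehicle-only and no BMP6 SMAD4 peaks, the 3 genes with most in each list, and pathway genes with no BMP6 SMAD4 peak. One named gene is not reported here.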

Additional observations from a re-analysis of the deposited data

How the results depend on the processing

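Alternatives covered the IDR threshold, the overlap rule, summit windows, peak strength, the TSS definition, motif windows, autosomes and each replicate column left out. Of 101 alternative values, 80 kept their direction and side of 0, or stayed within 1.5 times the count. No paired analysis was possible because each condition has 1 consensus list and its replicate columns carry no numbers. With an IDR of at most 0.01 in the vehicle SMAD4 list, 328 vehicle-only peaks, 464 genes with one and 126 genes with one and no BMP6 SMAD4 peak were left. Under that threshold the vehicle-only minus shared differences were −0.998 points for vehicle H3K27ac, 0.274 for H3K27ac listed in vehicle and not after BMP6, 0.592 for the TSS, 2.86 for GGAGCC, 2.28 for TEAD, −2.13 for the E-box, 0.662 for MEF2 and −4.56 for RUNX, with intervals that included 0 except for RUNX. At equal strength they were −2.11 for GGAGCC, −0.871 for the E-box and −1.44 for TEAD, whose intervals then included 0, and −2.66 for RUNX, whose interval then excluded it. Windows of 100 bp gave −1.14 for GGAGCC, 0.410 for RUNX and 0.318 for MEF2, and windows of 400 bp gave 0.394 for MEF2, all with intervals that included 0. In a promoter region of 1.5 kb before and 0.5 kb after each TSS, 698 genes had a vehicle-only peak and 613 had one and no BMP6 SMAD4 peak. Why these values moved was not tested, beyond the fewer peaks and smaller regions. Without the first replicate column 2663 vehicle-only peaks were found and without the second 2627, and the pSMAD1/5/9, H3K27ac, TSS and X differences kept their side of 0. These runs still used all 8577 vehicle consensus peaks, which were listed only where both replicates agreed. They therefore do not show what either replicate would give alone. Motif, exon, intron and intergenic shares were not run that way. The lists hold no read counts, so absence from the BMP6 list is no test of lower SMAD4 binding after BMP6.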
